A study of Mus musculus with 6 samples.

Results

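The genes of DNA replication and mitosis described here are 38 rows of the deposited gene table, chosen by name from 25904 rows, and all 38 passed the minimum on expression that 12332 genes passed. They encode the machinery that copies the chromosomes in S phase and the kinases, cyclins and checkpoint proteins that carry a cell through mitosis. Values came from 6 RNA-seq libraries of F9, a mouse teratocarcinoma cell line, whose stem-like cells take on endoderm character when given retinoic acid (RA). Cells of the shCtbp2 line carry a short hairpin RNA against Ctbp2, a transcriptional corepressor; those of the shRxr line carry one against a retinoid X receptor, the partner of RA receptors on DNA; and those of the shGFP line carry a control hairpin. Each line was sequenced after 48 hours in 1 µM all-trans RA and untreated, and all 6 groups grew in serum stripped with charcoal, which removes retinoids. Each group is 1 library, the labels name no replicate culture, each knock-down is known from a single hairpin line, and the label of the shRxr line does not say which receptor gene was targeted.

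A chromosome is licensed for copying when Cdc6 and Cdt1 load the ring of Mcm2 to Mcm7 proteins, the helicase that later unwinds DNA with the help of the GINS complex. The sliding clamp Pcna, placed by the Rfc loader, then holds the polymerases on the template. Many of these genes are transcribed at the start of S phase under E2F factors, while genes of mitosis often carry CHR and CCAAT elements and peak later in the cycle. Embryonal carcinoma cells such as F9 divide fast, with a short G1 phase, and slow down as they differentiate.

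Depth was 9955808 to 13322506 reads counted in genes per library. Levels are given as normalised reads, that is reads per 10000000 counted in genes. Ctbp2 stood at 55.4 in RA and 210.1 untreated in shCtbp2, against 701 in RA and 1811 untreated in shGFP. Rxra stood at 82.4 in RA and 73.7 untreated in shRxr, against 805 in RA and 520.3 untreated in shGFP. Of markers of embryonal carcinoma, Sox2 was at 1480.2 to 3107 in RA and 4316 to 4845 untreated, and Zfp42 at 2129 to 6197 in RA and 8730 to 8980 untreated, with shRxr the highest in RA for both. Both fell (limma, adjusted p 0.012 for Sox2 and 0.0060 for Zfp42). Pou5f1 was at 26185 in shCtbp2, 13335 in shRxr and 8530 in shGFP in RA, against 18172 to 18536 untreated, and Nanog at 3258 to 6930 in RA and 6748 to 8245 untreated; neither was called (adjusted p 0.47 and 0.20). The endoderm genes Gata4 (452 to 883 in RA, 135 to 155 untreated), Gata6 (436 to 739 in RA, 11.6 to 29.8 untreated), Sox17 (41.2 to 101 in RA, 11.7 to 22.6 untreated), Lama1 (2078 to 5214 in RA, 830.3 to 1248 untreated) and Col4a1 (4553 to 8672 in RA, 1872 to 3604 untreated) all rose (limma, adjusted p at most 0.0052). The RA target Cyp26a1 was at 509 to 2894 in RA and 4.18 to 8.86 untreated. Of markers of other cells, Ptprc (blood) was at 0 in 5 libraries and at 0.837 in the other, Dcn (fibroblasts) at 0 in 5 and at 2.01 in the other, and Thy1 was at 10.04 to 21.8 in RA and 35.2 to 131 untreated.

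Untreated, the 38 genes stood at nearly the same level in the 3 lines. The highest untreated library exceeded the lowest by 1.01-fold (Ccnb1, cyclin B1) to 1.38-fold (Aurkb, Aurora kinase B), with a median of 1.10. Of the 38 genes 35 were within 1.25-fold (share over all tested genes not computed). Among the RA libraries the same ratio ran from 1.10 (Cdk1) to 3.52 (Pola1), with a median of 1.56. The RA library of shCtbp2 held the lowest value of the 6 for 16 genes and the highest for 19, together 35 of 38 or 92.1%, against 68.8% of all tested genes. Per kilobase of transcript, the mean untreated level was highest for Mcm5, at 2582, followed by Mcm3 at 1609, Mcm7 at 1589 and Top2a at 1557. It was lowest for Gins3, at 106. The 38 genes together took 0.775% of the reads in shCtbp2, 0.726% in shRxr and 0.702% in shGFP in RA, against 0.782% in shCtbp2, 0.814% in shRxr and 0.826% in shGFP untreated.

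**Figure D1:**
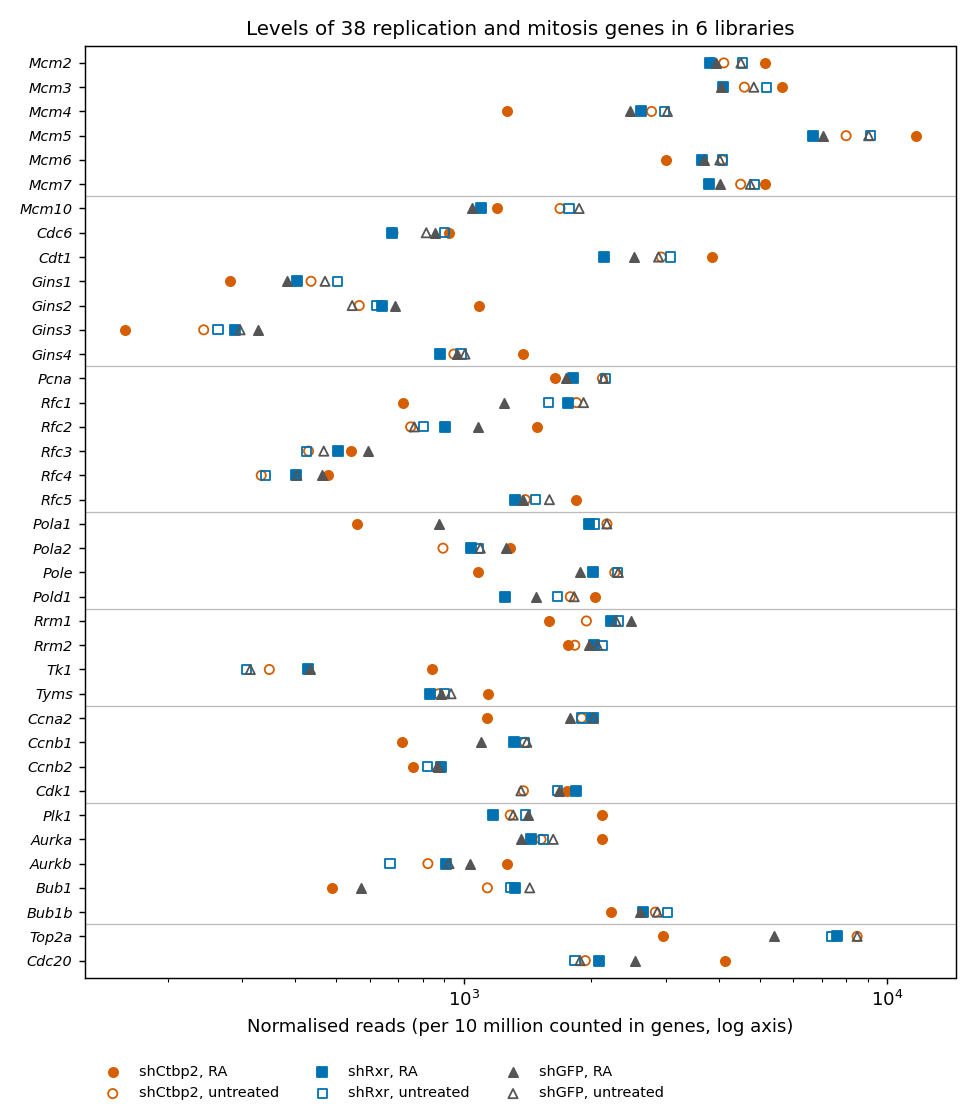
Normalised reads (log axis) of the 38 genes in the 6 libraries, 1 point per library, filled for RA and open for untreated cells, with grey lines between roles. Open symbols lie close together, within 1.38-fold for every gene, while filled symbols spread by up to 3.52-fold (Pola1), with shCtbp2 in RA at an end of the range for 35 of 38 genes.

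The promoters show which of the known cell cycle elements these genes hold. RefSeq promoters on GRCm38.p6, from 250 bases before the start to 50 after it, were found for 30 of the 38 genes. Both strands were searched for the CHR (TTTGAA), the CCAAT box (CCAAT) and an E2F-type word (TTTGGCGC, TTTCCCGC, TTTCGCGC or TTTGCCGC). An E2F-type word stood in 11 of 30 (36.7%), against 2.26% of all 32851 promoters, a CCAAT box in 22 of 30 (73.3%), against 37.4%, and a CHR in 9 of 30 (30%), against 17.9%. All 9 with a CHR also held a CCAAT box (30%, against 6.95%); they were Mcm2, Gins3, Ccnb2, Cdk1, Plk1, Aurka, Bub1b, Top2a and Cdc20, of which 7 are genes of mitosis or its entry. The E2F-type words lay in Mcm3, Mcm5, Mcm6, Mcm7, Cdc6, Cdt1, Gins3, Rfc3, Pola1, Pold1 and Cdk1. A match describes letters only, and says nothing of whether a factor was bound.

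Of these, 4 promoters are shown, for the gene with the largest difference between RA and untreated libraries (Pola1), the most abundant helicase gene (Mcm5), the kinase of mitotic entry (Cdk1) and the gene with a CHR that had the highest change with RA in shCtbp2 (Cdc20). Each run is the 200 bases before the start, 5′ to 3′ on the gene's strand, with matches in capitals, at chrX:93632156-93632355 (minus strand), chr8:75109309-75109508 (plus), chr10:69352913-69353112 (minus) and chr4:118437344-118437543 (minus) on GRCm38.p6.
Pola1: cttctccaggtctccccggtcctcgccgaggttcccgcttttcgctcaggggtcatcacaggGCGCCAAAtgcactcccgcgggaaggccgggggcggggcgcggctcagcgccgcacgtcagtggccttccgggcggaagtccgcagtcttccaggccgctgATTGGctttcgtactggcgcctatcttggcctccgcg
Mcm5: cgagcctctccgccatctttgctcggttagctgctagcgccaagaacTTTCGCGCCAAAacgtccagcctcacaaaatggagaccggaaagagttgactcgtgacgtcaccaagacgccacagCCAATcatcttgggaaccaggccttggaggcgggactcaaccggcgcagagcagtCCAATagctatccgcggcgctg
Cdk1: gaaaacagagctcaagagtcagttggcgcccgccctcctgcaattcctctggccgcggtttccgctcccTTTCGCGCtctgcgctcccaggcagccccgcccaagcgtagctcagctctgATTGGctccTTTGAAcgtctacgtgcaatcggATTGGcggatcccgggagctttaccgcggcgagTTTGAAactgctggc
Cdc20: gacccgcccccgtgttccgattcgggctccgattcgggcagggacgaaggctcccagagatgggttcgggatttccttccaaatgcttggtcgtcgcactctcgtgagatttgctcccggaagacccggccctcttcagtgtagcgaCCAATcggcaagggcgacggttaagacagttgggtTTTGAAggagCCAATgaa
Pola1 and Mcm5 each hold E2F-type and CCAAT letters, and in Mcm5 the capitals TTTCGCGCCAAA are a pair of E2F-type words on opposite strands that overlap. Cdk1 holds an E2F-type word, CCAAT boxes (ATTGG on this strand) and 2 CHRs, and Cdc20 CCAAT boxes around 1 CHR.

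**Figure D2:**
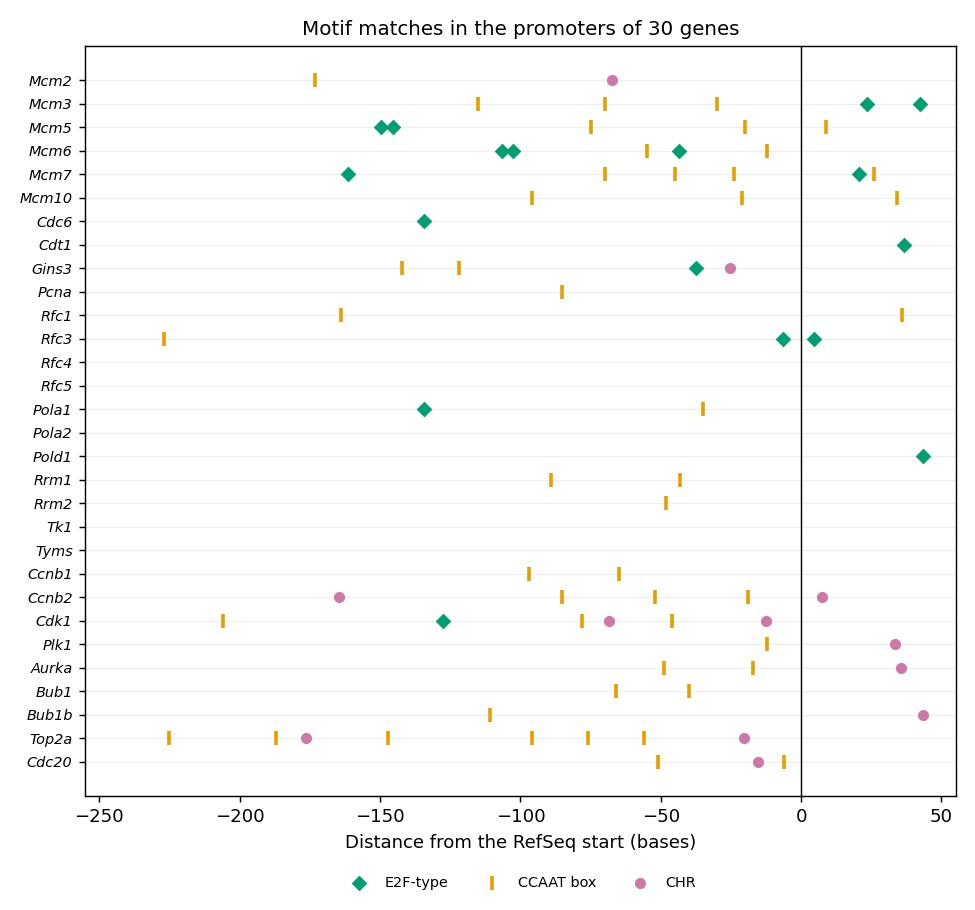
Positions of the E2F-type words (diamonds), CCAAT boxes (bars) and CHRs (circles) in the promoters of 30 genes, by distance in bases from the RefSeq start, which the vertical line marks. All 9 genes with a CHR also have a CCAAT box, and Rfc4, Rfc5, Pola2, Tk1 and Tyms have none of the 3 elements.

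The first comparison asked how RA moved these genes over the 3 lines. Of the 38 genes 1, Pola1, fell with RA and 0 rose, in the limma trend test with line and treatment as terms and Benjamini-Hochberg adjustment over all 12332 tested genes. Over all tested genes 10.8% were called higher and 4.63% lower, 15.4% in all (69.9% of the calls higher, 57.9% with libraries scaled to equal upper quartiles and 56.0% under median-of-ratios scaling). At an unadjusted p of 0.05 there were 5 of the 38 (Pola1, Bub1, Mcm10, Tk1 and Top2a), or 13.2%, against 31.0% of all tested genes. The median log2 change of the 38 was -0.08, beside 0.07 for all tested genes. In RNA from whole cultures, fewer cells in S phase or mitosis and less RNA per cell cannot be told apart.

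The lines differed in how far the genes moved. In shCtbp2, RA libraries were at least 2-fold higher for 2 of the 38 (15.1% of all tested genes) and at least 2-fold lower for 6 (19.3%). In shRxr it was 0 higher (5.26%) and 0 lower (1.46%), and in shGFP 0 higher (13.4%) and 2 lower (7.07%). Median log2 changes of the 38 were 0.25 in shCtbp2, -0.09 in shRxr and -0.16 in shGFP, beside 0.07 in shCtbp2, 0.09 in shRxr and 0.12 in shGFP for all tested genes. With the GC and length correction described further on, the median in shCtbp2 was -0.08. The spread of the 38 changes was 0.78 in shCtbp2, 0.25 in shRxr and 0.41 in shGFP (SD over genes, log2), beside 1.08 in shCtbp2, 0.52 in shRxr and 0.91 in shGFP for all tested genes. With 1 library per group these differences have no replicate check, and the intervals given with folds cover counting error only (95%, exact binomial).

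**Figure D3:**
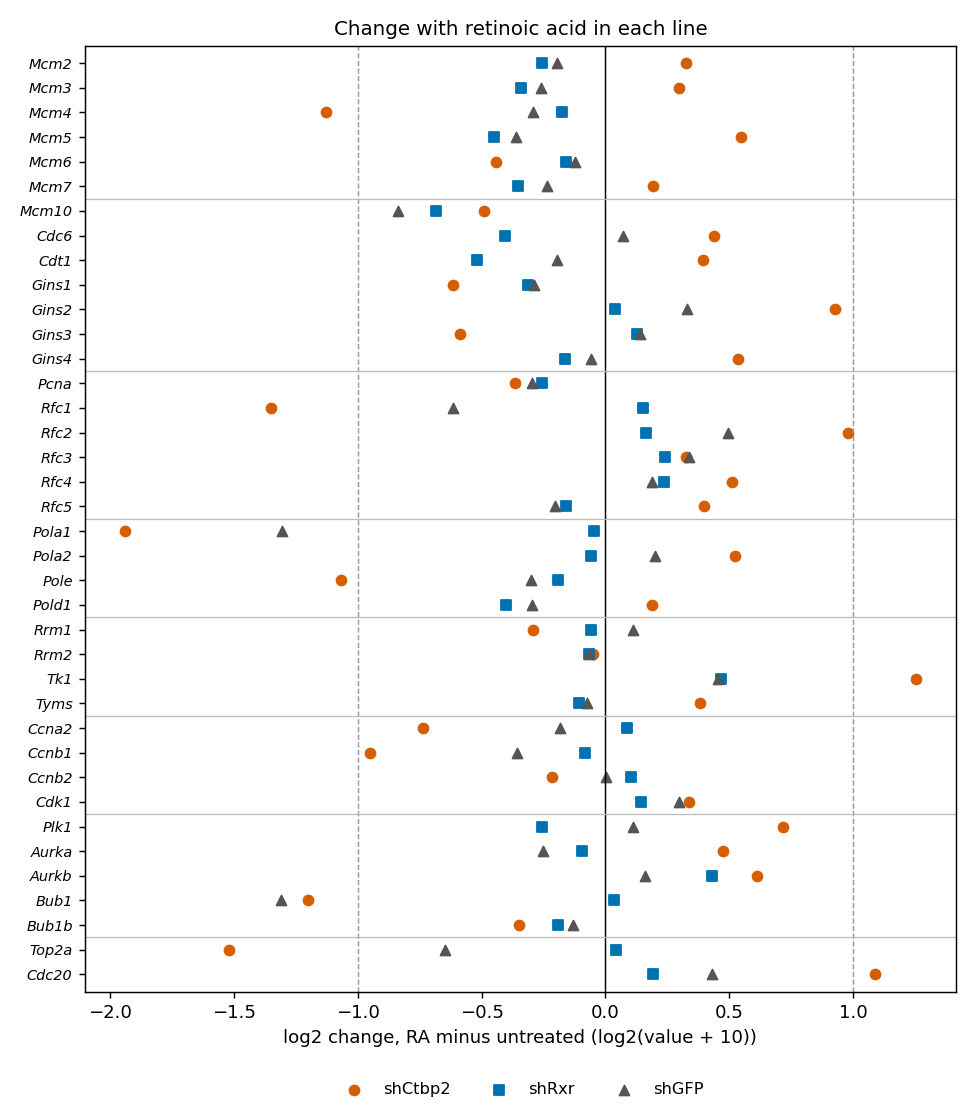
Log2 change with RA of each gene in shCtbp2 (circles), shRxr (squares) and shGFP (triangles), on the log2(value + 10) scale, with dashed lines at 2-fold. Circles reach from -1.94 (Pola1) to 1.25 (Tk1), squares stay between -0.68 (Mcm10) and 0.47 (Tk1), and triangles run from -1.31 (Bub1) to 0.49 (Rfc2).

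Read by direction, 10 genes were below their untreated library in all 3 lines (26.3%, against 19.9% of all tested genes), namely Mcm4, Mcm6, Mcm10, Gins1, Pcna, Pola1, Pole, Rrm2, Ccnb1 and Bub1b. Another 8 were above it in all lines (21.1%, against 33.3%): Gins2, Rfc2, Rfc3, Rfc4, Tk1, Cdk1, Aurkb and Cdc20. A further 10 were above it in shCtbp2 and below it in shRxr and shGFP (26.3%, against 7.91%): Mcm2, Mcm3, Mcm5, Mcm7, Cdt1, Gins4, Rfc5, Pold1, Tyms and Aurka. With the GC and length correction, Mcm2, Mcm3, Mcm7, Cdt1 and Pold1 were below 0 in shCtbp2 too. Mcm5, Gins4, Rfc5, Tyms and Aurka stayed above 0 there. A corrected share over all genes was not computed for this pattern. For 6 genes all RA libraries were above all untreated ones (24.1% of all tested genes), for 9 all were below (13.9%), and for 23 they overlapped.

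The polymerase genes held the only call. Pola1 encodes the catalytic subunit of DNA polymerase alpha, which with primase starts each new strand (ENSMUSG00000006678, mm9 chromosome X, 90550106 to 90877494). In RA it stood at 560.2 normalised reads in shCtbp2, 1973 in shRxr and 876 in shGFP, against 2179 in shCtbp2, 2038 in shRxr and 2178 in shGFP untreated. The RA libraries of shCtbp2 and shGFP lay far below all untreated ones, while that of shRxr was just below them. Pola1 fell by 1.10 on the log2 scale over the lines (limma, SE 0.33, adjusted p 0.040). It was 3.89-fold lower with RA in shCtbp2 (3.55 to 4.27), 1.03-fold lower in shRxr (0.973 to 1.10) and 2.49-fold lower in shGFP (2.32 to 2.67). The limma call was lost when single lines or that library were left out: without the shCtbp2 RA library the change was -0.68 (adjusted p 0.21), without the shCtbp2 line -0.68 (0.21) and without the shGFP line -0.99 (0.52), whereas without shRxr it was -1.62 (0.00030). Over all settings tried its adjusted p ran from 0.00030 to 0.52.

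The accessory subunit Pola2 went another way, at 1289.7 in shCtbp2, 1039.6 in shRxr and 1260.3 in shGFP in RA, against 893 in shCtbp2, 1084 in shRxr and 1095 in shGFP untreated. Pole, the leading-strand polymerase, stood in RA at 1081 in shCtbp2, 2015 in shRxr and 1881 in shGFP, against 2274 in shCtbp2, 2303 in shRxr and 2318 in shGFP untreated. All RA libraries of Pole were below all untreated ones, with shCtbp2 the lowest at 2.10-fold lower (1.96 to 2.26). Pold1, the catalytic subunit of polymerase delta, stood in RA at 2037 in shCtbp2, 1255 in shRxr and 1484 in shGFP, against 1785 in shCtbp2, 1662 in shRxr and 1823 in shGFP untreated. Uncorrected, shCtbp2 was thus higher in RA and the other lines lower. With the GC and length correction the log2 change of Pold1 was -0.66 in shCtbp2, -0.43 in shRxr and -0.69 in shGFP. None of the 3 passed the limma test without the correction, at a log2 of 0.22 for Pola2 (adjusted p 0.59), -0.52 for Pole (0.21) and -0.17 for Pold1 (0.69).

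Subunits of the replicative helicase were all lower with RA in shRxr and shGFP, before and after the GC and length correction. In shCtbp2 they did not move alike. Mcm5 (ENSMUSG00000005410, mm9 chromosome 8, 77633427 to 77652338) stood in RA at 11697 in shCtbp2, 6689 in shRxr and 7041 in shGFP, against 8001 in shCtbp2, 9146 in shRxr and 9045 in shGFP untreated. The shCtbp2 RA library was the highest of the 6 and those of shRxr and shGFP the lowest. It was 1.46-fold higher with RA in shCtbp2 (1.42 to 1.50), 1.37-fold lower in shRxr (1.33 to 1.41) and 1.28-fold lower in shGFP (1.25 to 1.32), and its change over the lines was -0.09 (limma, SE 0.28, adjusted p 0.86).

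Mcm4 showed the reverse in shCtbp2. It stood in RA at 1265 in shCtbp2, 2629.6 in shRxr and 2471 in shGFP, against 2778 in shCtbp2, 2974 in shRxr and 3028 in shGFP untreated, 2.20-fold lower with RA in shCtbp2 (2.06 to 2.34). Every RA library was below every untreated one, the others by less than 1.25-fold within their line. Before the correction Mcm2, Mcm3 and Mcm7 went with Mcm5, at 1.14-fold to 1.25-fold higher with RA in shCtbp2 and 1.14-fold to 1.28-fold lower in shRxr and shGFP. Mcm6 went with Mcm4, at 1.36-fold lower in shCtbp2, 1.12-fold lower in shRxr and 1.09-fold lower in shGFP. The median log2 change of the 6 subunits was 0.25 in shCtbp2, -0.30 in shRxr and -0.25 in shGFP. With the GC and length correction it was -0.21 in shCtbp2, -0.29 in shRxr and -0.45 in shGFP. Corrected changes in shCtbp2 were -0.30 for Mcm2, -0.12 for Mcm3, -0.51 for Mcm4, 0.22 for Mcm5, 0.01 for Mcm6 and -0.32 for Mcm7, so Mcm2, Mcm3 and Mcm7 were then below 0 with Mcm4. With every library kept, none of the 6 subunits was called by limma with or without the correction (adjusted p 0.21 to 0.93 without it).

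Among genes of loading and activation, Mcm10, which helps switch the loaded helicase on, was lower with RA in every line. It stood in RA at 1198 in shCtbp2, 1101 in shRxr and 1043 in shGFP, against 1688 in shCtbp2, 1773 in shRxr and 1873 in shGFP untreated. The groups did not overlap, with folds of 1.41 lower in shCtbp2 (1.31 to 1.51), 1.61 lower in shRxr (1.50 to 1.73) and 1.80 lower in shGFP (1.68 to 1.92). Its limma change was -0.67 (SE 0.25, adjusted p 0.092). Without line as a term it passed (adjusted p 0.048), and with the GC and length correction likewise (adjusted p 0.034).

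Cdt1, the licensing factor, stood in RA at 3854 in shCtbp2, 2147 in shRxr and 2518 in shGFP, against 2928 in shCtbp2, 3078 in shRxr and 2886 in shGFP untreated. Cdc6, its partner, stood in RA at 925 in shCtbp2, 676 in shRxr and 856 in shGFP, against 681 in shCtbp2, 899 in shRxr and 816 in shGFP untreated. Both were highest of the 6 libraries in shCtbp2 in RA and lowest in shRxr in RA. With the GC and length correction the log2 change of Cdt1 was -0.49 in shCtbp2, -0.49 in shRxr and -0.48 in shGFP. That of Cdc6 was 0.60 in shCtbp2, -0.43 in shRxr and -0.07 in shGFP.

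The 4 GINS genes encode subunits of 1 complex and parted in shCtbp2. Gins2 stood in RA at 1087 in shCtbp2, 641 in shRxr and 688 in shGFP, against 567 in shCtbp2, 624 in shRxr and 545 in shGFP untreated. Gins3 stood in RA at 158 in shCtbp2, 288 in shRxr and 327 in shGFP, against 243 in shCtbp2, 263 in shRxr and 296 in shGFP untreated. With RA in shCtbp2, Gins2 was 1.92-fold higher (1.74 to 2.11) and Gins4 1.45-fold higher (1.34 to 1.57), while Gins1 was 1.55-fold lower (1.34 to 1.80) and Gins3 1.54-fold lower (1.26 to 1.87). None of the 7 genes of this role was called without the GC and length correction (adjusted p 0.092 to 0.95).

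The clamp and its loader also split. Pcna stood in RA at 1647 in shCtbp2, 1811 in shRxr and 1741 in shGFP, against 2127 in shCtbp2, 2164 in shRxr and 2139 in shGFP untreated. All RA libraries were lower, by 1.29-fold in shCtbp2 (1.21 to 1.37), 1.19-fold in shRxr (1.12 to 1.27) and 1.23-fold in shGFP (1.16 to 1.30). With the GC and length correction the log2 change of Pcna was 0.10 in shCtbp2, -0.21 in shRxr and -0.02 in shGFP. Rfc1, the large subunit of the loader, stood in RA at 718 in shCtbp2, 1759.8 in shRxr and 1248 in shGFP, against 1846 in shCtbp2, 1584 in shRxr and 1918 in shGFP untreated. It was 2.57-fold lower with RA in shCtbp2 (2.36 to 2.80), 1.11-fold higher in shRxr (1.04 to 1.19) and 1.54-fold lower in shGFP (1.44 to 1.64), so the groups overlapped through shRxr.

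The small loader subunits Rfc2, Rfc3 and Rfc4 were above their untreated library in all lines. Rfc2 stood in RA at 1487 in shCtbp2, 903 in shRxr and 1081 in shGFP, against 749 in shCtbp2, 804 in shRxr and 764 in shGFP untreated. Rfc3 stood in RA at 541 in shCtbp2, 504 in shRxr and 593 in shGFP, against 430.1 in shCtbp2, 425 in shRxr and 467 in shGFP untreated. For these 2 the RA libraries lay above all untreated ones, while Rfc4 overlapped by its shRxr RA library. Rfc4 stood in RA at 478 in shCtbp2, 402 in shRxr and 462 in shGFP, against 333 in shCtbp2, 339.8 in shRxr and 404 in shGFP untreated. Rfc5 was 1.32-fold higher with RA in shCtbp2 (1.23 to 1.41), 1.12-fold lower in shRxr (1.04 to 1.20) and 1.15-fold lower in shGFP (1.08 to 1.23). None of the 6 genes was called by limma in the main fit (adjusted p 0.19 to 0.98). With the GC and length correction Rfc4 was called higher (log2 0.68, adjusted p 0.037). Leaving out the shRxr line, limma called Rfc1 lower (-0.98, adjusted p 0.0425).

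Of the genes of nucleotide supply, Tk1, the thymidine kinase of the salvage route, had the highest change in shCtbp2. It stood in RA at 842 in shCtbp2, 429 in shRxr and 433 in shGFP, against 347 in shCtbp2, 307 in shRxr and 313 in shGFP untreated. RA libraries were above untreated ones without overlap, by 2.42-fold in shCtbp2 (2.15 to 2.73), 1.4-fold in shRxr (1.21 to 1.61) and 1.38-fold in shGFP (1.21 to 1.58), and the limma change was 0.73 (SE 0.28, adjusted p 0.096). With the correction its log2 change in shCtbp2 was 0.48. Tyms, the thymidylate synthase, stood in RA at 1140.2 in shCtbp2, 835 in shRxr and 886 in shGFP, against 873 in shCtbp2, 901 in shRxr and 933 in shGFP untreated. Rrm2, the small subunit of ribonucleotide reductase, had the smallest changes of this role, at 1768 in shCtbp2, 2034 in shRxr and 1976 in shGFP in RA, against 1829.6 in shCtbp2, 2129 in shRxr and 2069.9 in shGFP untreated. The large subunit Rrm1 ranged from 1588 to 2477 in RA and from 1949 to 2320.1 untreated.

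Among cyclins and their kinase, Ccna2 (cyclin A2, of S phase and G2) stood in RA at 1136 in shCtbp2, 2019 in shRxr and 1781 in shGFP, against 1899 in shCtbp2, 1902 in shRxr and 2025 in shGFP untreated. Cdk1, the kinase that drives mitotic entry, stood in RA at 1752 in shCtbp2, 1843 in shRxr and 1681 in shGFP, against 1384 in shCtbp2, 1668 in shRxr and 1365 in shGFP untreated. Ccna2 was thus low in shCtbp2 in RA alone, while every RA library of Cdk1 was above every untreated one, by a narrow margin because shRxr was already high untreated. Ccnb1 was 1.95-fold lower with RA in shCtbp2 (1.78 to 2.13), 1.06-fold lower in shRxr (0.985 to 1.14) and 1.28-fold lower in shGFP (1.20 to 1.38). Ccnb2 (cyclin B2) held between 760.1 and 883 in all libraries, and none of the 4 was called (adjusted p 0.26 to 0.94).

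In the group of mitotic kinases and checkpoint genes, Bub1 and Bub1b, which signal unattached kinetochores, parted in size. Bub1 (ENSMUSG00000027379, mm9 chromosome 2, 127626858 to 127657601) stood in RA at 489 in shCtbp2, 1324 in shRxr and 572 in shGFP, against 1137 in shCtbp2, 1293 in shRxr and 1432 in shGFP untreated. It was low in RA in shCtbp2 and shGFP, while shRxr in RA lay among the untreated libraries. Bub1 was 2.33-fold lower with RA in shCtbp2 (2.10 to 2.58), 1.02-fold higher in shRxr (0.951 to 1.10) and 2.50-fold lower in shGFP (2.30 to 2.73). Its limma change of -0.83 (SE 0.30) had an adjusted p of 0.083, and it passed when libraries had equal upper quartiles (0.041), under median-of-ratios scaling (0.035) or with the shRxr line left out (0.0061). Bub1b was 1.27-fold lower in shCtbp2, 1.14-fold lower in shRxr and 1.10-fold lower in shGFP.

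The kinase Plk1, which acts from mitotic entry to exit, stood in RA at 2123 in shCtbp2, 1171 in shRxr and 1415 in shGFP, against 1288 in shCtbp2, 1399 in shRxr and 1309 in shGFP untreated. Aurka, the kinase of spindle poles, stood in RA at 2119 in shCtbp2, 1443 in shRxr and 1364 in shGFP, against 1523 in shCtbp2, 1542 in shRxr and 1627 in shGFP untreated. Aurkb, of the chromosomal passenger complex, stood in RA at 1265 in shCtbp2, 907 in shRxr and 1032 in shGFP, against 823 in shCtbp2, 669.6 in shRxr and 923 in shGFP untreated. All 3 kinases were highest in shCtbp2 in RA, and RA and untreated libraries overlapped for each (adjusted p 0.31 to 0.93). With the GC and length correction their log2 changes in shCtbp2 were -0.03 for Plk1, 0.10 for Aurka and 0.11 for Aurkb.

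Top2a and Cdc20 differed in direction in shCtbp2. Top2a, the topoisomerase that untangles sister chromatids, stood in RA at 2956 in shCtbp2, 7623 in shRxr and 5419 in shGFP, against 8495 in shCtbp2, 7393 in shRxr and 8497 in shGFP untreated. It was 2.87-fold lower with RA in shCtbp2 (2.76 to 2.99), 1.03-fold higher in shRxr (1.00 to 1.06) and 1.57-fold lower in shGFP (1.52 to 1.62), with a limma change of -0.71 (SE 0.31, adjusted p 0.14). Cdc20, which turns on the anaphase-promoting complex, stood in RA at 4135 in shCtbp2, 2092 in shRxr and 2539 in shGFP, against 1937 in shCtbp2, 1832 in shRxr and 1882 in shGFP untreated. Its RA libraries were above all untreated ones, by 2.13-fold in shCtbp2 (2.03 to 2.25), 1.14-fold in shRxr (1.07 to 1.21) and 1.35-fold in shGFP (1.28 to 1.42), with a limma change of 0.57 (SE 0.27, adjusted p 0.17). The corrected log2 changes in shCtbp2 were -0.54 for Top2a and 0.33 for Cdc20.

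**Figure D4:**
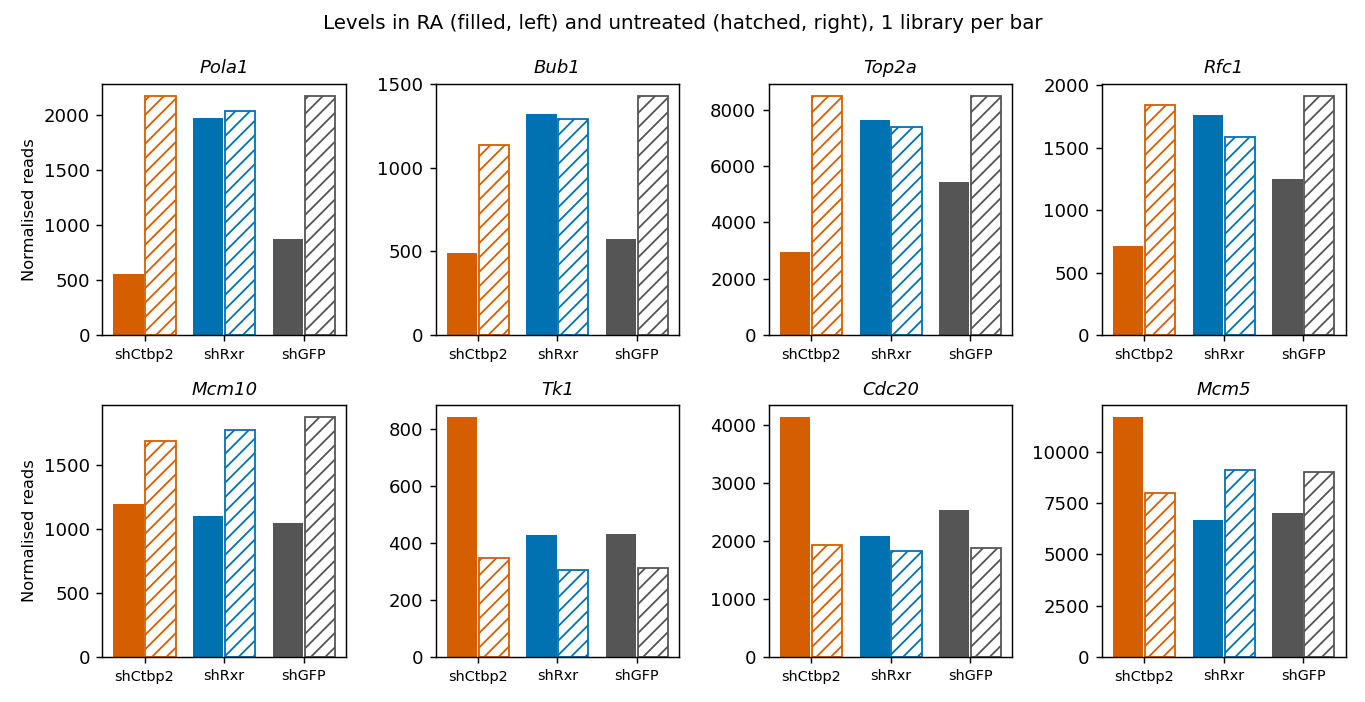
Normalised reads of 8 genes in each line, 1 library per bar, RA filled on the left and untreated hatched on the right, each panel on its own axis from 0. Pola1, Bub1, Top2a and Rfc1 are low in RA in shCtbp2 and shGFP and not in shRxr, Mcm10 is lower in RA in all 3 lines, Tk1 and Cdc20 are higher, and Mcm5 is higher in RA in shCtbp2 alone.

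The next comparison set each knock-down line against shGFP. Untreated, none of the 38 genes was 2-fold higher or lower in shCtbp2 (1.39% and 2.34% of all tested genes) or in shRxr (0.389% and 0.0649%). By sign, 8 were above shGFP and 30 below in untreated shCtbp2 (44.7% of all tested genes above). The median log2 difference was -0.08, beside -0.03 for all tested genes. In untreated shRxr 16 were above and 22 below (51.3% above). In RA, 0 members were 2-fold higher in shCtbp2 (3.18%) and 1 was 2-fold lower (14.8%), Gins3, at 2.07-fold lower (1.72 to 2.49). For shRxr in RA it was 2 higher (3.74%) and 0 lower (2.62%). Those 2 were Bub1, 2.31-fold higher than in shGFP (2.12 to 2.53), and Pola1, 2.25-fold higher (2.09 to 2.42), with Rfc1 and Top2a next at 1.41-fold each. Both sets of differences share the shGFP libraries. With the GC and length correction described further on, 0 members were 2-fold higher or lower than shGFP in RA in either line. Of all genes with a known GC, 2.05% were higher and 7.63% lower in shCtbp2, and 1.43% and 2.13% in shRxr. Corrected log2 differences in RA were -0.87 for Gins3 in shCtbp2. In shRxr they were 0.69 for Bub1, 0.68 for Pola1, 0.42 for Rfc1 and 0.18 for Top2a. The limma contrasts over both treatments called none of the 38 in shCtbp2, where 0.105% of all tested genes were called higher and 0.0405% lower (0.146% in all), and none in shRxr, where 0.0% were called higher and 0.00811% lower. At an unadjusted p of 0.05 there were 0 of the 38 in either contrast, against 8.85% of all tested genes for shCtbp2 and 1.23% for shRxr, and voom on the recovered reads also called 0.

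The difference in RA response, a line's log2 change less the one in shGFP, was largest in shRxr for Bub1, at 1.34, Pola1, at 1.26, Rfc1, at 0.77, Top2a, at 0.69, and Cdc6, at -0.48. Bub1 and Pola1 were the 2 of 38 at 1 or more (5.6% of all tested genes), and none was at -1 or less (4.47%). In shCtbp2 no gene reached 1 in either direction (2.72% higher and 12.4% lower); Mcm5 at 0.91, Tk1 at 0.80, Top2a at -0.87, Mcm4 at -0.84 and Pole at -0.77 were the largest. These are differences between single libraries, with no test. With the GC and length correction those in shCtbp2 were 0.78 for Mcm5, 0.19 for Tk1, -0.18 for Top2a, -0.37 for Mcm4 and -0.39 for Pole. Corrected differences in shRxr were 0.67 for Rfc1, 0.29 for Top2a and -0.36 for Cdc6, and those of Bub1 and Pola1 are given further on.

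GC content moved with these changes. Values of the shCtbp2 RA library were higher at higher transcript GC across all genes (Spearman 0.68 between GC and the library's departure from the 6-library mean, n = 12133, genes not being independent replicates). Over the 38 genes the change with RA had a Pearson correlation with GC of 0.69 in shCtbp2, -0.22 in shRxr and 0.44 in shGFP, beside 0.60 in shCtbp2, -0.03 in shRxr and 0.33 in shGFP over all tested genes. Of the 19 members with lower GC 15 were below 0 in shCtbp2 (median -0.49), and of the 19 with higher GC 17 were above 0 (median 0.47). The medians for lower and higher GC were -0.05 and -0.19 in shRxr, and -0.18 and -0.13 in shGFP. The difference between shRxr and shGFP in RA also moved with GC, in the other direction. Its Pearson correlation was -0.63 over the 38 genes and -0.52 over all tested genes. For the departure of the shRxr RA library from the 6-library mean, Spearman was -0.44 over all tested genes, near the -0.41 to -0.45 of the untreated libraries. Pola1, Bub1 and Top2a, at 41.5%, 41.0% and 43.4% GC, were among the lowest, and Tk1 and Cdc20, at 55.5% and 55.6%, among the higher.

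Correcting each library for transcript GC and length cannot tell a library bias from a response that follows GC. After it, no member was 2-fold lower with RA in shCtbp2 (7.87% of all genes with a known GC), shRxr (1.44%) or shGFP (4.72%). Rfc2 and Rfc4 were 2-fold higher in shCtbp2 (9.30%), and none was in shRxr (5.23%) or shGFP (12.1%). Pola1 had corrected log2 changes of -0.85 in shCtbp2, -0.15 in shRxr and -0.82 in shGFP, and Bub1 of -0.29 in shCtbp2, -0.01 in shRxr and -0.74 in shGFP. The corrected differences in RA response of shRxr were 0.68 for Pola1 and 0.73 for Bub1. After the correction limma called 6 of the 38 (15.8%, against 24.6% of 12133 genes), Cdt1, Mcm10, Pola1, Pold1 and Pole lower and Rfc4 higher.

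**Figure D5:**
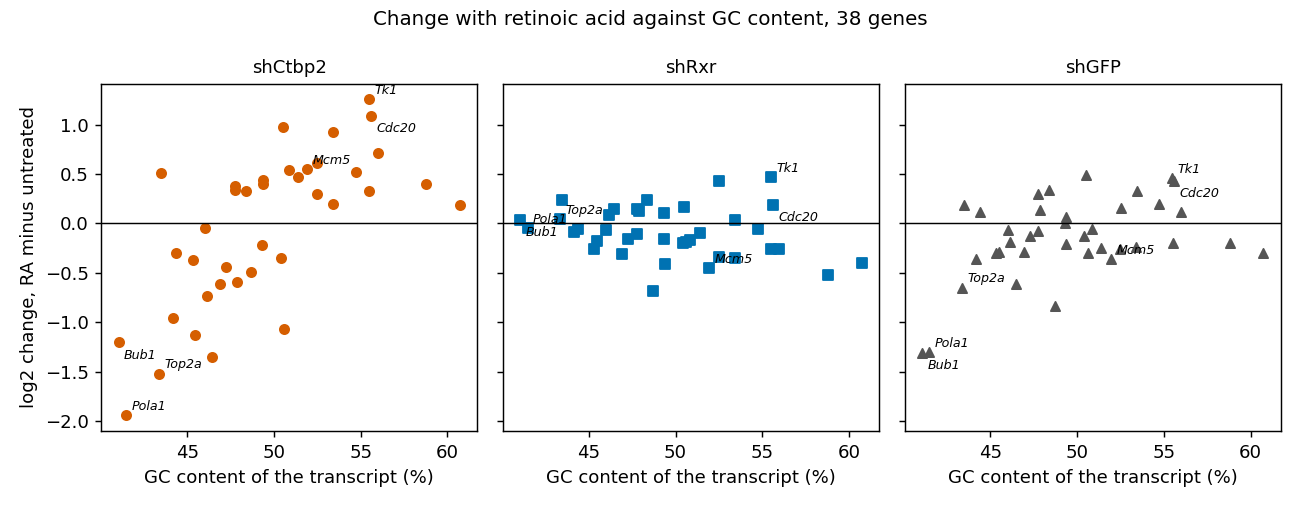
Log2 change with RA of the 38 genes against the GC content of the transcript (%), 1 panel per line. In shCtbp2 the points climb with GC (Pearson 0.69), in shGFP less so (0.44), and in shRxr they do not (-0.22).

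Set beside the promoters, the 9 genes with a CHR and a CCAAT box had median log2 changes with RA of 0.32 in shCtbp2, 0.04 in shRxr and 0.00 in shGFP, and the 21 without a CHR had 0.19 in shCtbp2, -0.11 in shRxr and -0.21 in shGFP. The 11 genes with an E2F-type word had medians of 0.30 in shCtbp2, -0.34 in shRxr and -0.20 in shGFP, and the 19 without one had -0.05 in shCtbp2, -0.07 in shRxr and -0.13 in shGFP. Median transcript GC was 50.4% with a CHR and 48.4% without, and 49.4% with an E2F-type word and 48.7% without. Genes can stand in both groupings, and no test was made.

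Other genes of the pathway were looked at as lists. Of 43 further replication genes measured, Rpa1, a subunit of the single-strand binding protein, rose (log2 1.14, limma adjusted p 0.014) and Orc1, of the origin recognition complex (-0.96, adjusted p 0.033), Dbf4, the activator of Cdc7 kinase (-1.02, adjusted p 0.042), and Atad5, which unloads Pcna (-1.23, adjusted p 0.028), fell. These were 4 of 43, beside 15.4% of all tested genes, and the list's median was -0.19. Transcript GC was 48.9% for Rpa1, 46.7% for Orc1, 44.4% for Dbf4 and 41.8% for Atad5. Values of these lists are given without the GC and length correction. Rpa1 stood in RA at 7316 in shCtbp2, 5209 in shRxr and 9894 in shGFP, against 3082 in shCtbp2, 3535 in shRxr and 3204 in shGFP untreated. Its RA libraries were all above its untreated ones.

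Of 54 further mitosis genes Mad1l1, a checkpoint protein, rose (0.83, limma adjusted p 0.046), and the kinetochore genes Cenpe (-1.09, adjusted p 0.037) and Casc5 (-0.95, adjusted p 0.045) fell, with a median of -0.13. These were 3 of 54, beside 15.4% of all tested genes. Transcript GC was 56.8% for Mad1l1, 42.9% for Cenpe and 37.7% for Casc5. Cenpe stood in RA at 334 in shCtbp2, 1037 in shRxr and 333 in shGFP, against 954 in shCtbp2, 1097 in shRxr and 1093 in shGFP untreated. As for Bub1, the RA library of shRxr was close to the untreated ones. None of 20 genes of E2F, pocket proteins and the MuvB complex was called by limma or by voom (median -0.22). At an unadjusted p of 0.05 there were 2 of the 20, against 31.0% of all tested genes by limma.

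Of 6 measured inhibitors of cyclin-dependent kinases Cdkn2a (1.14, limma adjusted p 0.023) and Cdkn2c (1.64, adjusted p 0.0028) rose, with a median of 0.37, and of 10 G1 cyclin and Myc genes Ccnd1 (-1.47, adjusted p 0.0021), Cdk6 (-1.32, adjusted p 0.012), Myc (-1.25, adjusted p 0.0081) and Mycn (-1.50, adjusted p 0.0023) fell. The median of that list was -0.12. Of the 133 genes of the 5 lists limma called 13 in the RA contrast, against 15.4% of all tested genes. In the shCtbp2 contrast 0 were called (0.146% of all tested genes), with 8 at an unadjusted p of 0.05 (8.85%). In the shRxr contrast 0 were called (0.00811%), with 0 at an unadjusted p of 0.05 (1.23%). Voom gave the same counts for the lists in both line contrasts.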

How the data were processed

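RNA of 6 libraries, 1 per group, was sequenced with a TruSeq kit on a HiSeq instrument, per the labels' protocols. The submitters' processing notes name TopHat 1.4, HTSeq and the mm9 build. The counting mode, strand setting and annotation are not stated in the sources used. The deposited values are log2 of reads per 10000000 counted in genes, plus 1, as read from the values: unlogged, each library sums to 10000000, and 100% of values are whole reads within 1e-06. Value columns left over numbered 0. Genes whose reads may be shared with an overlapping gene or pseudogene are uncertain; among the 38 these are Mcm7, Gins2, Pcna, Rfc4, Rfc5, Pola1, Pole, Tk1, Tyms, Ccna2, Ccnb2, Top2a and Cdc20.

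Changes are differences of log2(value + 10), which understates changes of low genes, for genes with a mean of at least 20 (12332 of 23886 with a read). The test was a limma trend fit (version 3.58.1, under R 4.3.3) on line and treatment, with 2 residual and 11.2 prior degrees of freedom, and a threshold of 0.05 with Benjamini-Hochberg adjustment. For the RA effect the lines stand in for replicates, and for the line effects the treatments do. A p-value sets a mean change against an error. That error draws on the gene's differences in RA response between lines and, through the prior, on all tested genes. On simulated data with 12316 genes, 93% of 100 genes changed 2-fold by RA and 99% of 100 changed 4-fold were recovered, with 4.95% of calls false. Whether these shares hold for the deposited libraries, whose lines differed in RA response, was not tested. Folds have 95% Clopper-Pearson intervals of the recovered reads. GC content and length, from the longest protein-coding GENCODE M21 transcript, were known for 98.4% of tested genes and corrected with natural splines of 5 degrees of freedom each. Python 3.11.15, pandas 2.3.3 and scipy 1.17.1 were used.

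The members, their 8 roles and the further lists were chosen with earlier results of these data known. Values in every library are given for 26 members: those called, the highest and lowest of each role per kilobase, the 5 highest and 5 lowest changes in each line, and the 5 largest differences in RA response of each knock-down; a few others are given as well. Ticrr, Knl1 and Bora were not found under these symbols, and Cdkn2d was below the minimum. Alternatives were other pseudocounts, filters and scalings, voom on the recovered reads, the correction for GC content and length, and leaving out lines or a library.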

Additional observations from a re-analysis of the deposited data

Results flagged for a closer look

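Of the 38 genes 9 moved one way with RA in shCtbp2 and the other way in shGFP. Counted here are genes whose counting intervals were clear of 1 in both lines. Gins3, Gins4, Tyms and Ccnb2 also had opposite signs, but their interval in shGFP held 1. Each change rests on 1 library pair per line, so the difference was not tested. The share over all tested genes was not computed. The difference in RA response, shCtbp2 minus shGFP (log2), was 0.52 for Mcm2, 0.56 for Mcm3, 0.91 for Mcm5, 0.43 for Mcm7, 0.59 for Cdt1, 0.60 for Rfc5, 0.48 for Pold1 and 0.73 for Aurka, all higher with RA in shCtbp2 and lower in shGFP, and -0.41 for Rrm1, lower in shCtbp2 and higher in shGFP. Rrm1 has the lowest transcript GC of the 9, at 44.4%, and the others lie at 49.4% to 60.7%. With the GC and length correction 3 of the 9 still had opposite signs, read without intervals, and the difference was 0.78 for Mcm5, 0.66 for Rfc5 and 0.45 for Aurka.

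In shRxr 2 genes moved opposite to shGFP with counting intervals clear of 1 in both lines, and again this was not tested. Other genes had opposite signs without meeting that rule. Bub1, for example, had log2 changes of 0.03 in shRxr and -1.31 in shGFP, but its interval in shRxr held 1. The difference, shRxr minus shGFP, was 0.77 for Rfc1, higher with RA in shRxr and lower in shGFP, and -0.37 for Plk1, lower in shRxr and higher in shGFP. After the correction it was 0.67 for Rfc1, still with opposite signs, and -0.10 for Plk1, then with the same sign in both lines.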

How the results depend on the processing

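The RA contrast called 1 of the 38 genes and 1898 of all tested genes. Of the 38 it called 0 with no filter (1728 of all genes), 0 with a mean of at least 100 (812), 2 with upper quartiles made equal (2296) and 2 under median-of-ratios scaling (2362; Pola1 and Bub1 in both), 6 with the GC and length correction (2986), 0 without the shCtbp2 RA library (772) and, chosen after seeing the data, 4 without that library and with the correction (Cdt1, Mcm10, Mcm5 and Pold1; 2466). With no replicate block, that is with line left out of the model, 1105 genes were called and 1 of the 38, which was Mcm10 in place of Pola1 (adjusted p 0.13). Leaving out a line gave 464 (without shGFP) to 3245 genes (without shRxr) and 0 to 4 of the 38, the 4 being Bub1, Pola1, Rfc1 and Top2a. The shCtbp2 contrast called 18 genes in all, but 4 with a pseudocount of 1, 0 with no filter, 4 with a mean of at least 100, 78 with equal upper quartiles, 85 under median-of-ratios scaling, 4 with voom, 2 with the correction, 0 without the shCtbp2 RA library and 1 without it and with the correction. The shRxr contrast called 1 gene, and 0 with no filter or without that library. None of the 38 was called by either under any of these. The median change of the 38 with RA in shGFP was -0.16, against -0.32 with equal upper quartiles and -0.27 under median-of-ratios scaling, and in shRxr -0.09, against -0.19 and -0.21. In shCtbp2 it was 0.25, against -0.076 with the correction. For shCtbp2 against shGFP in RA it was 0.05, against 0.30 and 0.20 with the same 2 scalings. Equal upper quartiles moved the median of all genes from 0.12 to -0.04 with RA in shGFP; relative to it the 38 stood at -0.27 and -0.28. The shCtbp2 median over both treatments was -0.06, and 0.054 in RA libraries only. Of 1292 values of single genes under the alternatives 1270 kept their side of the threshold, 15 passed in addition and 7 no longer passed. All 7 were of Pola1, the only member called in the main fit, over 14 alternatives. The 1292 include the shCtbp2 and shRxr contrasts, where no member passed in any fit. The sign changed for 129 of the 1292, none of which passed in either fit. The causes were not tested. With 160 to 11818 reads per member and library, the interval of the fold held 1 for 13 of 38 genes with RA in shRxr, for 21 in shCtbp2 against shGFP untreated and for 23 in shRxr against shGFP untreated.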
